A study of Mus musculus with 86 samples.

Results

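Testis RNA of Btbd18 knockout mice at postnatal day 18 (P18) was compared with that of heterozygous mice of the same age. The comparison used the 6 whole-testis poly(A) RNA libraries labelled P18, 3 from knockouts (homozygous for the mutation) and 3 from heterozygotes, out of 86 samples in the series and 20 testis RNA libraries. The mice were C57BL/6 (B6) X 129/SvJ hybrids, and the heterozygous controls carry 1 mutant allele themselves. The study also sampled testis RNA at P10, P14 and P28, small RNA, RNA of purified germ cells, and chromatin. The labels do not say which part of Btbd18 is deleted or whether libraries of a group came from separate animals, and the tests then gauge variation among the libraries at hand, possibly technical in part. All 24276 listed features entered, 16334 of them passed the filter on low counts, and 207 of those tested are piRNA loci, 99 of them intergenic and 108 named after a gene.

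BTBD18 is a nuclear protein of male germ cells that carries a BTB domain. PIWI-interacting RNAs (piRNAs) are small RNAs cut from long single-stranded precursor transcripts, and in meiotic spermatocytes most of them come from intergenic loci that are switched on at the pachytene stage of meiosis, a set known to be driven by the transcription factor MYBL1 (A-MYB). In young mice the first wave of germ cells moves through the testis together, so that whole-testis RNA at a given age reflects the most advanced cells reached. In the heterozygous P18 libraries the synaptonemal complex gene Sycp1, which marks meiotic prophase, stood at 783, 830 and 986 CPM (counts scaled to a common library size), whereas the protamine gene Prm1, which marks elongating spermatids, stood at 0.493, 0.395 and 0.350 CPM. Spermatocyte RNA was thus abundant and late spermatid RNA near 0 in the tissue compared.

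The P18 libraries held 5822808 to 8889581 counts, and the biological coefficient of variation over all testis libraries was 0.0901. Libraries were compared with edgeR's quasi-likelihood test on counts scaled by TMM (a factor that matches libraries on most of their genes, also used for the CPM given here), and a feature was called changed at a Benjamini-Hochberg adjusted p below 0.05 over all features tested. Features outside the naming rule given under the processing were chosen after their values were seen, namely Acr, Crem, Hormad1, Hspa2, Prm2, Sycp1, Sycp3, Tnp1 and those said to be so below. Fold changes are log2 of knockout over heterozygous, given with their standard error (SE). The Nextera kit used for testes does not mark strand, so overlapping and antisense genes cannot be told apart. In bulk tissue, fewer cells of a type and less RNA per cell cannot be told apart either.

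Btbd18 (chromosome 2, 84659072 to 84668789, build GRCm38.p6) was measured first. Its RNA stood at 16.1, 12.5 and 12.4 CPM in the heterozygous libraries and at 4.22, 2.63 and 3.88 CPM in the knockout libraries. The groups did not overlap, and counts over the gene remained in every knockout library.

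At P18, 502 features fell in the knockouts, 3.07% of those tested, and 58 rose, 0.355%. The falls form 2 unlike groups. Intergenic piRNA loci lost most of their precursor RNA, with 57 of 99 lower, none higher and a median log2 fold change of -3.65 among those that fell. A further 5 falls were piRNA loci named after a gene. The remaining 440 were mostly genes that rise late in the first wave, and their median was -0.76. All features tested had a median of -0.01.

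**Figure D1:**
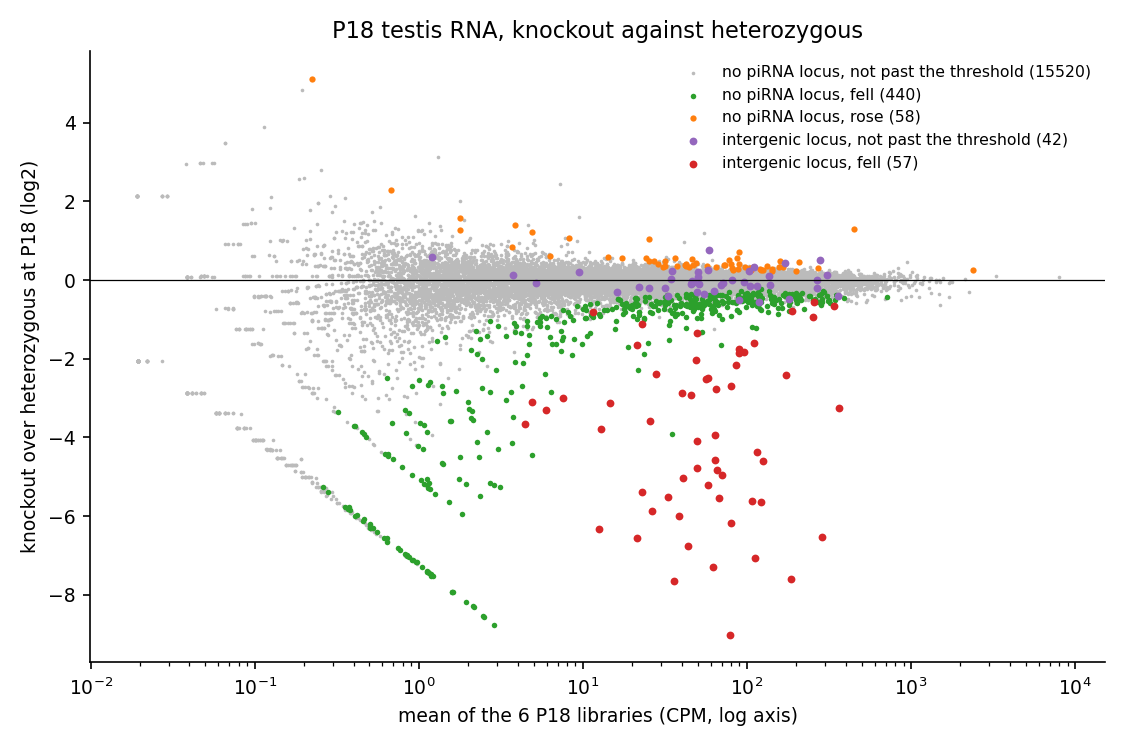
Each point is 1 feature: its mean over the 6 P18 libraries (CPM, log axis) against its log2 fold change of knockout over heterozygous. Of the 57 intergenic loci that fell, 45 fell by more than 4-fold and 5 by less than 2-fold; of the 440 other falls 269 are under 2-fold, most of the large ones lie at low levels with Chst1 (-3.91) as an exception, and 49 of the 58 rises are below 2-fold; the diagonal line of points at the lower left holds features with no count in any knockout library, whose fitted change depends on a constant added to the counts.

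Of the 57 intergenic loci that fell, 45 fell by more than 4-fold, 26 by more than 16-fold and 19 by more than 32-fold. In 56 of them every knockout library lay below every heterozygous one, an order that 8.75% of all features tested also showed. The locus 15-qD1-17920 had the smallest p. Its precursor stood at 179, 169 and 125 CPM in heterozygotes and at 1.83, 2.46 and 2.29 CPM in knockouts, a log2 fold change of -6.18 ± 0.23 (adjusted p = 6.14e-13, edgeR with Benjamini-Hochberg). The locus 18-qE1-36451 stood at 135, 107 and 96.4 CPM against 4.11, 2.79 and 1.76 CPM (-5.20 ± 0.20). In 7-qD1-9417, 80.6, 73.2 and 61.0 CPM stood against 0.114, 0.657 and 0.353 CPM (-7.65 ± 0.26). Every knockout library of these 3 loci lay at or below 4.11 CPM, and every heterozygous one at or above 61.0 CPM.

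Loci differed in how much RNA was left. Among the 12 loci with the smallest p, 6-qD1-2831 kept the most, with 83.2, 86.7 and 72.9 CPM in heterozygotes and 11.9, 10.2 and 9.87 CPM in knockouts (-2.91 ± 0.12). The locus 9-qC-10667 kept 7.76, 7.39 and 8.29 CPM of 131, 127 and 99.6 CPM (-3.93 ± 0.17). The other members of these 12, namely 10-qB4-6488, 9-qC-31469, 7-qD2-24830, 15-qD1-4001, 6-qF3-28913, 7-qD2-11976 and 7-qD1-19431, had log2 fold changes between -4.77 and -6.01. The fall with the largest fitted size, chosen after its values were seen, was that of 18-qE1-1295, from 178, 165 and 130 CPM to 0.571, 0 and 0.176 CPM (-9.01 ± 0.31).

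**Figure D2:**
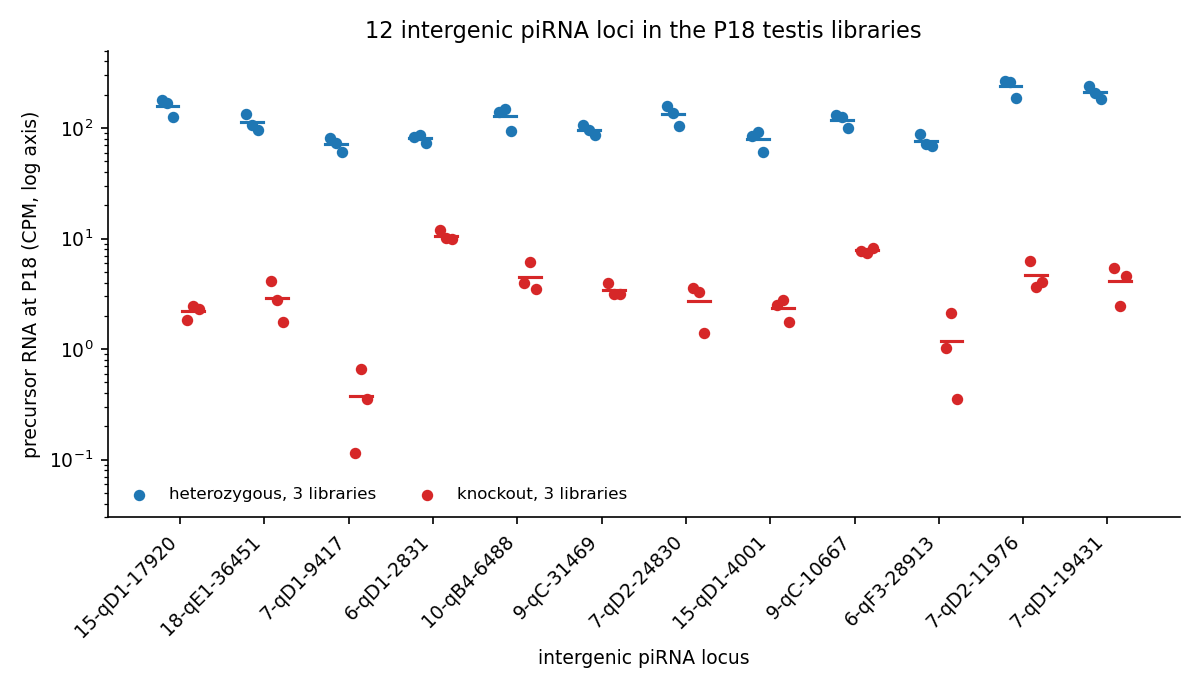
Precursor RNA (CPM, log axis) of the 12 intergenic loci with the smallest p at P18, each library a point and each group mean a bar. For every locus the 3 heterozygous points lie between 60.5 and 269 CPM, and all 3 knockout points lie below them, at most at 11.9 CPM.

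Highly transcribed loci were not alike, as the following show, which were chosen after their values were seen. At the highest heterozygous levels, 17-qA3.3-26735 fell from 718, 720 and 538 CPM to 65.5, 66.9 and 75.6 CPM (-3.25 ± 0.16), and 6-qF3-8009 fell from 647, 606 and 448 CPM to 10.5, 2.79 and 3.35 CPM (-6.54 ± 0.26). In contrast 7-qB5-6255, at 497, 448 and 298 CPM in heterozygotes, kept 220, 302 and 266 CPM (-0.66 ± 0.17, adjusted p = 0.0356, edgeR with Benjamini-Hochberg). This was the 1 locus among the 57 whose groups overlapped. Among loci that did not pass, 13-qB1-1517 stood at 489, 432 and 303 CPM against 295, 308 and 316 CPM, and 8-qC5-8200 at 307, 274 and 215 CPM against 239, 306 and 258 CPM.

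The 42 intergenic loci that did not pass had a median log2 fold change of -0.07. The locus 1-qD-4525, chosen after its values were seen, was one whose knockout libraries (81.6, 70.8 and 67.7 CPM) all lay above the heterozygous ones without passing (47.8, 44.5 and 37.2 CPM; 0.77 ± 0.21, adjusted p = 0.0515, edgeR with Benjamini-Hochberg). Summed over the 57 loci that fell, precursor RNA was 8986, 8521 and 6426 CPM in heterozygotes and 1439, 1413 and 1308 CPM in knockouts. Summed over the other 42 it was 4367, 4167 and 3292 CPM against 3570, 4298 and 3650 CPM, and these ranges overlapped. Heterozygous replicate 3 was the lowest heterozygous library in 53 of the 57 loci.

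Names of the loci give the chromosome, and 57 of 99 tested loci fell over all chromosomes. The following were picked after the counts were seen. All 6 tested loci of chromosome 14 fell, as did 8 of 10 on chromosome 7, 8 of 11 on chromosome 10 and 5 of 6 on each of chromosomes 9, 15 and 17. None of 8 loci on chromosome 13 and 1 of 6 on chromosome 8 fell. The names are given without coordinates in the table, so loci that lie side by side may count more than once, and no test was made.

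Small RNA of the same loci was read from the separate P18 small RNA libraries, 3 of each genotype. The column name of 1 heterozygous library matches no sample title, so it was used only as a member of its group. Reads over the 57 loci made up 56.0%, 54.5% (the library with no matching title) and 49.8% of all counted small RNA in heterozygotes. In knockouts they made up 12.04%, 4.16% and 3.30%. Reads over the other 42 loci made up 4.90%, 4.78% and 3.76% in heterozygotes and 11.9%, 5.21% and 5.21% in knockouts. At 15-qD1-17920, small RNA, as CPM of all counted reads with no further scaling, stood at 15252, 14929 and 13276 CPM in heterozygotes and at 138, 58.01 and 39.3 CPM in knockouts. Knockout replicate 1 held the highest share of the knockouts for both sets of loci.

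The size of the small RNA changes depended on scaling. TMM factors were 0.294 to 0.327 in heterozygotes and 1.14 to 1.99 in knockouts, and the 2 scalings differ by 2.19 on the log2 scale. Of the 57 loci, small RNA was lower at 52 with TMM scaling, where 17.7% of all features tested were lower and 20.1% higher, and at 47 with total counts, where 0.654% were. With total counts, where 80.6% of all features were higher, small RNA was higher at 4 of the 57, whose precursors fell. These were 17-qC-59 (2.64), 17-qA3.3-352 (1.91), 6-qF3-3040 (1.19) and 2-qF1-2536 (1.18). With TMM the same loci stood at 0.38, -0.34, -1.05 and -1.11 in that order, and none of them passed, so their direction depended on scaling. Of the 42 others, 16 were lower with TMM and 17 were higher with total counts, where 80.6% of all features were higher. Across the 99 loci the log2 fold change of small RNA (total counts) followed that of precursor RNA, with Pearson's r of 0.93 and Spearman's rho of 0.86. The points share libraries within each readout and are not replicates, and the 2 readouts share no library.

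**Figure D3:**
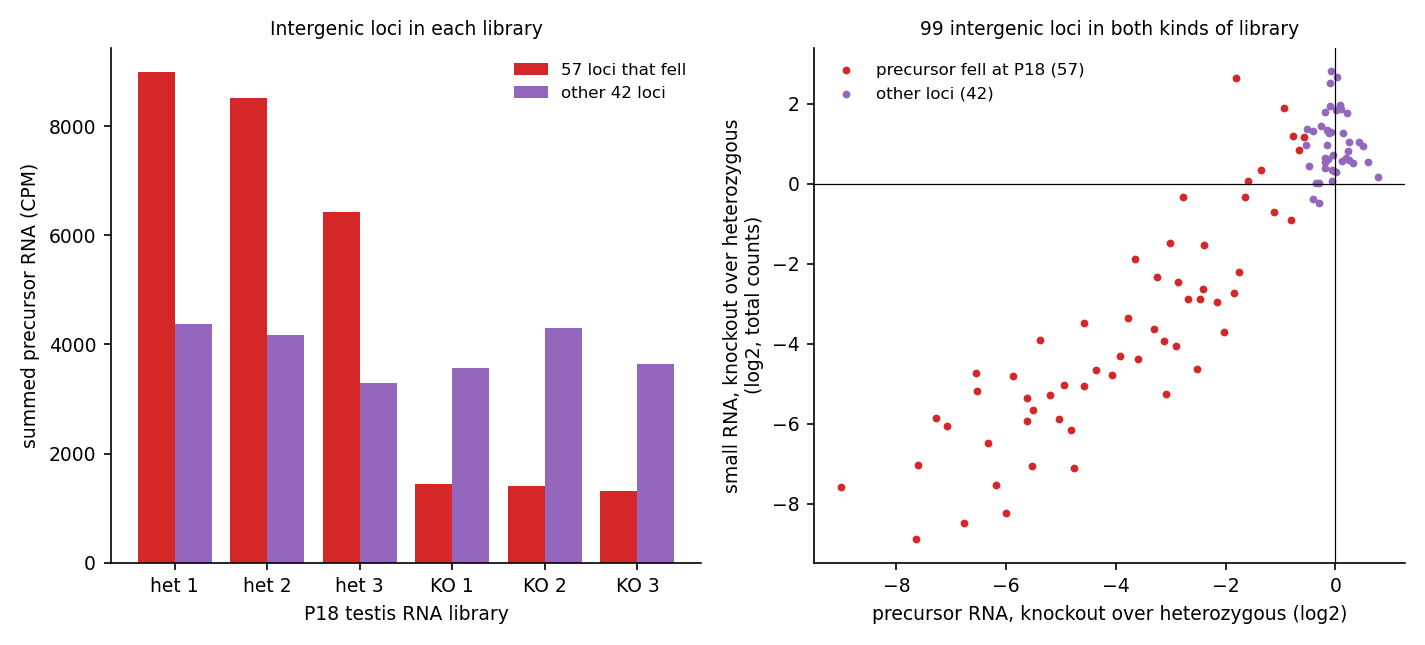
Left, summed precursor RNA (CPM) of the 57 intergenic loci that fell and of the other 42 in each P18 library. Right, log2 fold change of precursor RNA against that of small RNA (total counts) for the 99 loci, 1 point a locus. The 57 sum to at least 6426 CPM in heterozygotes and at most 1439 CPM in knockouts, and loci with larger precursor falls lie lower in small RNA.

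Genic piRNA loci, here those named after a gene, mostly did not pass: 5 of 108 fell and none rose, with a median of -0.02. Of all features tested, 3.07% fell and 0.355% rose. The largest was pi-1700016M24Rik, at 123, 120 and 75.1 CPM against 36.1, 37.0 and 27.5 CPM (-1.65 ± 0.17, adjusted p = 5.64e-06, edgeR with Benjamini-Hochberg). The locus pi-Asb1 stood at 8.70, 9.09 and 9.21 CPM against 4.22, 5.09 and 4.41 CPM (-0.98 ± 0.20). The other members that fell, pi-Ip6k1, pi-Wdfy3 and pi-Mlc1, changed by between -0.39 and -0.61. Those 3 lost the call without heterozygous replicate 1, without knockout replicate 3 and with the 6 P18 libraries fitted alone, and pi-Wdfy3 and pi-Mlc1 also without heterozygous replicate 2 and without knockout replicate 1. The call of pi-Asb1 was lost without knockout replicate 1 and with the 6 libraries fitted alone.

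Of the genes for piRNA pathway proteins, none of 24 tested passed in either direction, and their median was -0.07. Piwil1, which encodes the PIWI protein that binds pachytene piRNAs, stood at 1282, 1059 and 848 CPM against 717, 868 and 786 CPM (-0.43 ± 0.15, adjusted p = 0.120, edgeR with Benjamini-Hochberg). Mov10l1, the helicase that starts precursor processing, stood at 474, 431 and 399 CPM against 458, 543 and 561 CPM (0.26 ± 0.09). Gtsf1, a PIWI partner, and Tdrd7, a chromatoid body scaffold, had values of -0.34 and -0.31 without passing. Piwil1 passed without heterozygous replicate 3 and with no filter on low counts, Gtsf1 without heterozygous replicate 3 and without knockout replicate 2, Tdrd7 without knockout replicate 2 and with no filter, and Mov10l1 with total counts.

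The 440 falls among features that are no piRNA loci were 2.73% of the 16127 tested. They were sorted by their course in heterozygous testes from P14 to P28, a comparison with no P18 library in it. Of the 440, 423 rose from P14 to P28 (96.1%, 95% Wilson interval 93.9% to 97.6%, over genes that are not independent), against 37.9% of all such features. Conversely, 37 of the 58 rises (63.8%) fell from P14 to P28, against 37.3% of all. The filter on low counts used all testis libraries, so a gene with almost no counts at P14 and P18 could enter through P28. Such genes rise with age by construction and count in both 96.1% and 37.9%. Falls at 5 CPM or more in heterozygotes had a median log2 of P28 over P14 of 3.63, and the other falls 10.5. With the 6 P18 libraries filtered and fitted alone, 90.9% of 33 falls had risen. Whether the filter raised the share was not tested. Not all late genes passed: of 1301 features that rose more than 32-fold from P14 to P28, 228 (17.5%) fell at P18. A further 220 did not pass and lay within 0.25 of 0. As a set the 1301 lay lower in knockouts, with a median log2 fold change of -0.75 at P18. It was -0.70 with the 172 that had no knockout count set at the bound that 3 counts over the group allow.

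**Figure D4:**
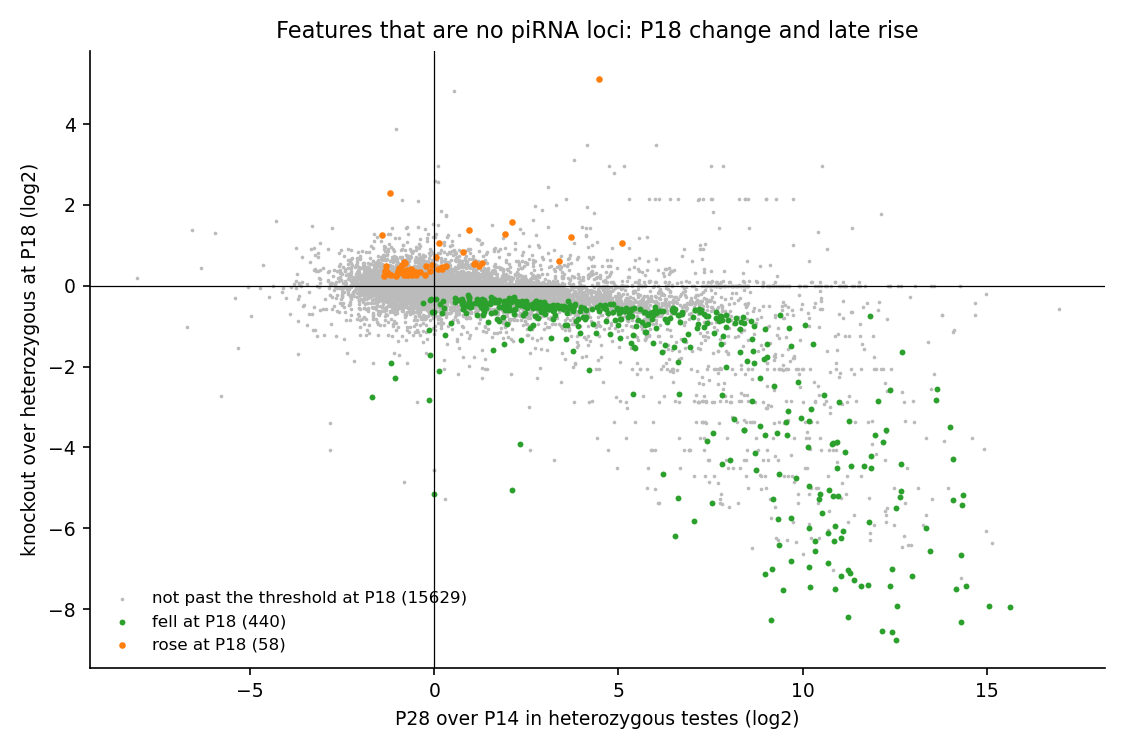
Each point is a feature that is no piRNA locus: log2 of P28 over P14 in heterozygous testes against log2 of knockout over heterozygous at P18. Of the 440 falls, 423 lie among features that rose with age, and most of the largest falls lie at large late rises.

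The number of these falls depended on single libraries and on whether the other ages were in the fit. It was 33 when the 6 P18 libraries were fitted alone, 122 without knockout replicate 1, 162 without knockout replicate 3, 276 without heterozygous replicate 1 and 965 without knockout replicate 2, whereas intergenic loci that fell numbered 53 to 58 in these 5. The fit of the 6 libraries alone leaves out no P18 library. It estimated the spread without the other ages and tested 14205 features, against 16334 in the main fit. Most of the 440 calls were thus made only with libraries of the other ages in the fit. Knockout replicate 2 was the highest knockout library in 263 of the 440. Over the 1301 features that rose more than 32-fold with age, summed RNA was 38149, 30220 and 33073 CPM in heterozygotes and 21506, 30475 and 18172 CPM in knockouts, so knockout replicate 2 lay above heterozygous replicate 2. Whether the age or stage reached by single testes bears on these falls was not tested.

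Falls at a heterozygous mean of 5 CPM or more, 327 in number, had a median of -0.62, and heterozygous replicate 1 was the highest heterozygous library in 231 of them. The other 113, below 5 CPM, had a median of -5.04, or -3.66 with the 44 genes that had no knockout count set at the bound that 3 counts over the group allow. Here heterozygous replicate 3 was the highest in 106. Over all 440, replicate 3 stood at least 2-fold above both other heterozygous libraries in 103, against 761 of all 16127. The heterozygous libraries thus did not lead in the same features. Among the 57 intergenic loci, replicate 3 was the highest heterozygous library in 1.

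Among falls ranked by p, Chst1, which encodes a carbohydrate sulfotransferase, came first. It stood at 77.7, 72.5 and 48.0 CPM in heterozygotes and at 5.82, 4.43 and 2.29 CPM in knockouts (-3.91 ± 0.22, adjusted p = 1.24e-10, edgeR with Benjamini-Hochberg). All knockout libraries lay far below all heterozygous ones, and the gene was lower at P14 (-2.06) and at P28 (-4.08) as well. Stambp, a deubiquitinase gene that did not rise with age, stood at 177, 182 and 113 CPM against 61.2, 61.6 and 81.8 CPM (-1.21 ± 0.14). Gstt2, which encodes a glutathione S-transferase, stood at 37.1, 45.4 and 29.8 CPM against 11.3, 13.8 and 12.2 CPM (-1.60 ± 0.19). Like the intergenic loci, these 3 genes were lower at P14 too and were lowest, among heterozygotes, in replicate 3. Chst1 lies on chromosome 2 as does the mutated Btbd18, with promoter windows from 92600867 and from 84658829. Whether strain alleles linked to the mutation differ between the groups of these hybrid mice, and bear on Chst1, was not tested.

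The rest of that ranking held genes of several kinds. Plcd4, a phospholipase C gene, stood at 42.2, 34.0 and 34.3 CPM against 9.48, 13.1 and 7.41 CPM (-1.87 ± 0.17). The unnamed transcript 1700010B08Rik stood at 124, 99.2 and 90.9 CPM against 35.05, 42.5 and 22.4 CPM (-1.64 ± 0.16), and the ciliary gene Ttc21a at 62.9, 51.4 and 65.3 CPM against 26.6, 28.6 and 21.3 CPM (-1.22 ± 0.14). In all 3 the groups did not overlap. Hyal6 (-1.52), Toporsl (-1.31) and Herc6 (-0.96) fell at levels of 44.9 to 93.9 CPM in heterozygotes, and all 6 genes but Herc6 rose over 32-fold from P14 to P28 in heterozygotes.

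Some falls were large because little RNA was left. Tmem225, a transmembrane protein gene, stood at 6.07, 6.32 and 8.63 CPM against 0.457, 0.493 and 0.176 CPM (-4.14 ± 0.34). For 4930519G04Rik, at 5.91, 6.98 and 5.48 CPM in heterozygotes, 3 counts were left in the knockouts together, a ratio of 41.8 (95% counting interval 14.0 to 205). Hipk4, a kinase gene, stood at 4.10, 3.29 and 10.0 CPM against 0.571, 0.164 and 0 CPM (-4.30 ± 0.59). In Tmem225 and 4930519G04Rik the 3 heterozygous libraries were close to each other, whereas in Hipk4 replicate 3 stood apart. Nt5c1b, Lrrc18 and Irgc1, of the largest falls at 5 CPM or more, were likewise highest in heterozygous replicate 3, at 11.3, 12.1 and 20.5 CPM against 2.79, 2.24 and 4.27 CPM in the next, and the call of Irgc1 was lost when the 6 P18 libraries were fitted alone. Lrrc18 did not pass the filter on low counts in that fit and was not tested there.

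The 6 falls of the highest level were small. Atxn7l3b stood at 966, 782 and 705 CPM against 532, 713 and 579 CPM (-0.43 ± 0.11), and Shcbp1l at 534, 413 and 400 CPM against 304, 378 and 299 CPM (-0.46 ± 0.12). Limd2, Ppp2r5c, Phospho2 and Ccdc104 changed by -0.51, -0.37, -0.57 and -0.50. All 6 calls were lost without heterozygous replicate 1, without knockout replicate 1, without knockout replicate 3 and in the fit of the 6 libraries alone, and those of Atxn7l3b, Phospho2 and Ccdc104 also without heterozygous replicate 2.

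Cell division genes were followed in a list of 20 genes of late pachytene and the meiotic divisions. Of these 3 fell, against 3.07% of all features tested, and none rose (median -0.32). Plk1, the kinase that acts at entry into division, stood at 50.2, 37.7 and 49.5 CPM against 26.8, 26.1 and 24.0 CPM (-0.83 ± 0.11, adjusted p = 8.97e-05, edgeR with Benjamini-Hochberg). The groups did not overlap. Ccna1, the cyclin of meiotic division in the male, stood at 113, 90.4 and 109 CPM against 54.5, 83.4 and 26.6 CPM (-0.92 ± 0.23), and Pgk2, the testis form of a glycolytic enzyme, at 168, 131 and 154 CPM against 73.9, 126 and 71.6 CPM (-0.74 ± 0.17). In both of the latter knockout replicate 2 lay close to the heterozygotes, and both lost the call without knockout replicate 1, without knockout replicate 3 and without heterozygous replicate 1, as well as in the fit of the 6 libraries alone, Ccna1 also without heterozygous replicate 3 and in DESeq2. Hspa2, a spermatocyte chaperone gene, was at a log2 fold change of 0.00.

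None of 30 tested genes of the meiotic prophase machinery passed (median 0.03). Sycp1 stood at -0.01, Sycp3 at -0.05 and Hormad1, an axis protein gene, at 0.03. The smallest p was that of Mnd1, at 4.27, 3.82 and 4.08 CPM against 2.40, 2.63 and 2.47 CPM, with an adjusted p of 0.107 (edgeR with Benjamini-Hochberg).

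Acrosome genes, which build the secretory cap of the spermatid, fell in 5 of 21, and all 21 had a value below 0 (median -1.54). Of all 16334 features tested, 3.07% fell, 8581 had a value below 0 and 7644 a value above 0. Low counts weigh on that median, as 6 of the 21 genes had no knockout count. Summed over the list, RNA was 2825, 2280 and 2181 CPM in heterozygotes and 1497, 2493 and 1544 CPM in knockouts. Knockout replicate 2 thus lay above heterozygous replicates 2 and 3, and the groups overlapped. Acrv1 stood at 1.64, 1.19 and 12.2 CPM in heterozygotes and at 0 counts in all knockout libraries, at least 38.1-fold lower against a floor of 3 counts over the group. Spam1 stood at 1.15, 1.32 and 7.23 CPM and Spaca4 at 1.31, 0.659 and 3.85 CPM, both at 0 in the knockouts, at least 24.3-fold and 14.1-fold lower. In each of these genes heterozygous replicate 3 held most of the reads. Acr, the proacrosin gene, which is transcribed earlier, stood at 91.8, 78.9 and 85.2 CPM against 73.8, 96.1 and 50.8 CPM (-0.21) and did not pass. Acrv1, Spam1 and Spaca4 lost the call without knockout replicate 1, the last 2 of them also without knockout replicate 3 and in DESeq2. In the fit of the 6 P18 libraries alone these 3 genes did not pass the filter on low counts and were not tested.

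Genes of the sperm tail sheaths and head cytoskeleton had the most calls, 14 of 26 lower and none higher (median -1.21). Of all features tested, 3.07% were lower. Akap4, the main scaffold protein of the fibrous sheath, stood at 3.12, 0.922 and 13.3 CPM against 0 in the knockouts, at least 43.0-fold lower. Odf1, an outer dense fibre gene, stood at 2.96, 1.05 and 8.74 CPM against 0.228, 0.329 and 0.176 CPM (-4.12 ± 0.80), and Actl7a, an actin-like protein of the spermatid head, at 2.30, 3.42 and 8.98 CPM against 0.571, 0.329 and 0 CPM (-3.87 ± 0.62). Heterozygous replicate 3 was again the highest. Its relative Actl9, transcribed at higher levels, stood at 51.9, 43.6 and 42.1 CPM against 19.4, 31.2 and 16.8 CPM (-1.03 ± 0.17), with replicate 3 the lowest heterozygous library. Odf1 lost the call without knockout replicate 1, and Actl7a and Actl9 lost it in the fit of the 6 libraries alone. Akap4 and Odf1 did not pass the filter on low counts in that fit and were not tested there.

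Genes of the motile axoneme, the microtubule core of the tail, had 6 falls among 27 tested and no rise, where 3.07% of all features fell. All 27 had a value below 0, against 8581 of all 16334 features tested. The median was -0.40 with a range of -0.76 to -0.04. Dnah6, a dynein heavy chain gene, stood at 161, 122 and 128 CPM against 90.3, 101 and 76.7 CPM (-0.61 ± 0.11, adjusted p = 0.00256, edgeR with Benjamini-Hochberg). The tektin genes Tekt2, Tekt5 and Tekt3, whose proteins line the tubules, changed by -0.64, -0.64 and -0.73. None of these 4 calls held in the fit of the 6 P18 libraries alone, and those of Tekt5 and Tekt3 were lost without knockout replicate 1 and without knockout replicate 3, that of Tekt3 also without heterozygous replicate 1 and without heterozygous replicate 3. Summed over the list, knockout replicate 2 (6307 CPM) lay above heterozygous replicate 3 (6141 CPM), so the groups overlapped.

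Of 20 round spermatid regulators, kinases and channels, 6 fell (median -0.68), against 3.07% of all features tested. Klhl10, a ubiquitin ligase adaptor gene of spermatids, stood at 2.63, 3.56 and 14.2 CPM against 0.343, 1.15 and 0.529 CPM (-3.48 ± 0.63), and Catsper1, a sperm calcium channel gene, at 0.821, 0.395 and 4.20 CPM against 0, at least 13.5-fold lower. Slc9c1, a sperm sodium-proton exchanger gene, stood at 202, 156 and 158 CPM against 89.3, 131 and 74.2 CPM (-0.80 ± 0.17). Crem, the regulator of spermatid transcription, was at -0.35 without passing. Catsper1 and Slc9c1 lost the call without knockout replicate 1 and without knockout replicate 3, and Klhl10 and Slc9c1 in the fit of the 6 libraries alone. Catsper1 did not pass the filter on low counts in that fit and was not tested there. Of 11 genes of sperm chromatin packaging, Hils1, a spermatid linker histone gene, fell (-2.83 ± 0.67), a call lost without heterozygous replicate 3, without knockout replicate 1 and without knockout replicate 3. Hils1 was likewise filtered out and not tested in the fit of the 6 libraries alone. Tnp1, Prm1 and Prm2 stood below 0.5 CPM in every library.

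**Figure D5:**
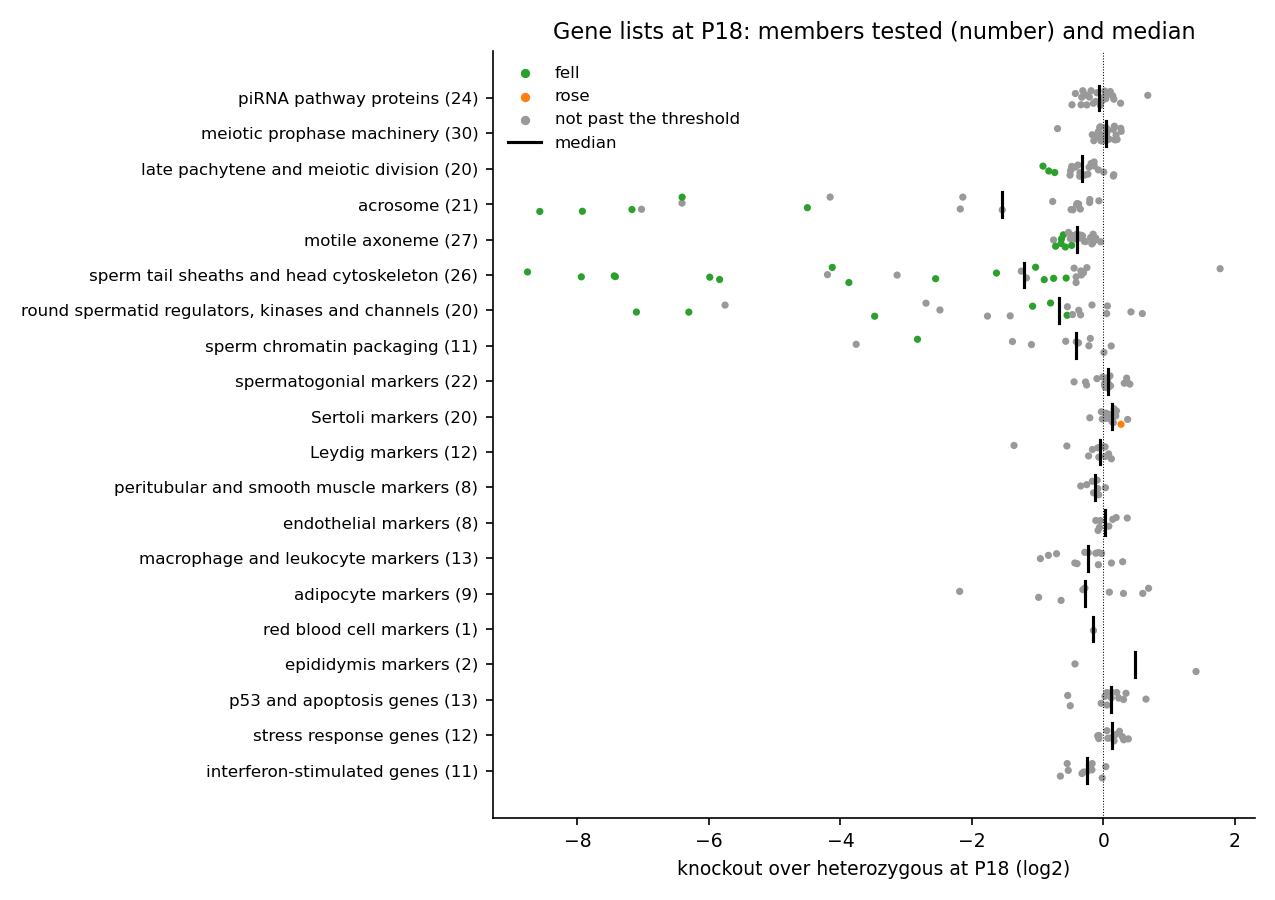
Log2 fold changes of knockout over heterozygous at P18 for the members tested (their number in brackets) of 20 gene lists, 1 point a gene, with the list's median as a bar. Points far to the left lie in the acrosome, tail sheath and head, round spermatid and chromatin packaging lists. Medians of the piRNA pathway and prophase lists are -0.07 and 0.03. Those of the somatic lists run from -0.28 (adipocyte) to 0.49 (epididymis, 2 genes), and single genes of these lists lie further out.

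Somatic and spermatogonial markers had 1 call. None of 22 spermatogonial markers passed (median 0.06), and of 20 Sertoli cell markers Clu, a secreted chaperone gene, rose from 2080, 2124 and 2331 CPM to 2747, 2666 and 2456 CPM (0.27 ± 0.07, adjusted p = 0.0390, edgeR with Benjamini-Hochberg). That call was lost without heterozygous replicate 1, without heterozygous replicate 2, without knockout replicate 1 and in the fit of the 6 libraries alone. Sums over the Sertoli list were 4659 to 5513 CPM in heterozygotes and 5336 to 6263 CPM in knockouts. Of its 20 values, 17 lay above 0, against 7644 of all 16334 features tested. Other lists leaned the other way: 11 of 13 macrophage and leukocyte markers and 10 of 11 interferon-stimulated genes lay below 0, against 8581 of all features. Sox9, a Sertoli cell transcription factor gene (0.37, adjusted p = 0.0583, edgeR with Benjamini-Hochberg), passed without heterozygous replicate 3, without knockout replicate 2, in DESeq2 and with no filter on low counts. Leydig (12 tested), peritubular (8), endothelial (8), macrophage and leukocyte (13), adipocyte (9), red blood cell (1) and epididymis (2) markers had no call, nor had p53 and apoptosis genes (13), stress genes (12), interferon-stimulated genes (11) or miRNA genes (17). Among the members named by the rule, Wt1 and Jun passed without knockout replicate 2, Sall4, Emr1 and the prophase gene Tex15 without heterozygous replicate 3, and Star with no filter. The epididymal gene Crisp1 had reads in heterozygous replicate 1 (7.88 CPM) and knockout replicate 3 (19.9 CPM) only.

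Of the 440 falls, 17 had not risen with age, and they were looked at after their values were seen. Zfp820, a zinc finger gene, stood at 50.2, 38.2 and 19.1 CPM against 7.31, 6.41 and 8.11 CPM (-2.29 ± 0.27, adjusted p = 1.74e-05, edgeR with Benjamini-Hochberg), and it was at -0.26 at P14 and 0.03 at P28. Cd74, H2-Aa and H2-Eb1, genes of antigen presentation by MHC class II molecules, fell together. Cd74 stood at 48.3, 25.6 and 13.1 CPM against 9.36, 5.58 and 10.9 CPM (-1.71 ± 0.35), H2-Aa at 20.2, 10.0 and 3.50 CPM against 1.71, 0.657 and 2.12 CPM (-2.83 ± 0.52), and heterozygous replicate 1 was the highest in both. At P28 these 3 were higher in knockouts (2.84, 3.27 and 2.85), as were 25.7% of all features tested. Over the 13 macrophage and leukocyte markers the summed level was 225 to 288 CPM in heterozygotes and 170 to 259 CPM in knockouts, none was called, and their part in the MHC class II values was not tested.

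The 58 rises were small, with a median of 0.39, and 49 were below 2-fold. Their number was 14 without knockout replicate 1, 20 without heterozygous replicate 2, 27 without heterozygous replicate 1, 106 without heterozygous replicate 3, 200 without knockout replicate 2 and 5 with the 6 P18 libraries fitted alone. Ptchd3, a patched-domain gene transcribed in male germ cells, rose from 282, 260 and 240 CPM to 503, 744 and 667 CPM (1.29 ± 0.16, adjusted p = 3.58e-05, edgeR with Benjamini-Hochberg). Its groups did not overlap. Golga2, which encodes the Golgi matrix protein GM130, stood at 181, 177 and 164 CPM against 229, 254 and 236 CPM (0.46 ± 0.07). Tmem106c, a membrane protein gene, stood at 75.5, 62.6 and 63.7 CPM against 92.9, 134 and 106 CPM (0.72 ± 0.13). Zfa-ps, at 20.2, 16.2 and 13.4 CPM against 30.9, 36.1 and 35.3 CPM (1.05 ± 0.17), is a pseudogene whose reads may be shared with close copies, so its value is uncertain.

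Of the 15 rises with the smallest p, the other members were Prelid1 (0.52), Scpep1 (0.52), Abcg8 (1.21), Atat1 (0.55), Pnkd (0.33), Urgcp (0.38), Ywhaz (0.32), Schip1 (1.26), Lrrc61 (0.56), Tmc6 (0.49) and Morc1 (0.56). All 11 of these calls were lost when the 6 P18 libraries were fitted alone. With total counts in place of TMM, 107 features rose and 439 fell, a share of rises of 19.6%, against 7.99% with RLE factors. The median of all features moved from -0.01 with TMM to 0.03 with total counts. Among the rises, 57 were shared between TMM and total counts.

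The P14 comparison, of 2 knockout and 2 heterozygous libraries, shares no library with the P18 one. At P14 148 features fell (0.906%) and 14 rose (0.0857%). Intergenic loci that fell numbered 56 at P14, of which 49 also fell at P18, 86.0% of the P18 list and 87.5% of the P14 list. Of falls that are no piRNA loci, 18 fell at both ages, 4.09% of the 440 at P18 and 20% of the 90 at P14. These P14 counts depended on single libraries. At P14 46 features fell, 36 of them intergenic loci, without heterozygous replicate 1, and 42 and 35 without knockout replicate 2, while 300 and 64 did without knockout replicate 1. With the P14 libraries fitted alone 55 fell, 39 of them intergenic loci. Rises at P14 numbered 5 to 47 with 1 library left out, the highest without knockout replicate 1 and the lowest without knockout replicate 2, with 6 without heterozygous replicate 1 and 8 without heterozygous replicate 2. At P10 no intergenic locus passed and 0.00612% of all features fell. There the intergenic loci held 0.0469% to 0.0529% of a library's counts, against 0.938% to 1.20% in heterozygotes at P18. A fall at these loci could thus hardly be seen at P10. At P28, where 25.1% of all features fell, 53 of the 57 loci and 393 of the 440 other falls also fell.

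Those 18, in order of p at P18, were Chst1, Btbd18, Stambp, Gstt2, Ttbk2, Lrrc63, Actl9, Adam1b, Slc22a16, Ube2u, Lca5l, Eid3, Mroh2a, Dak, Gtf2a1l, Pbp2, Ak8 and Ppp3r2. Ttbk2, a tau-tubulin kinase gene needed for cilium assembly, stood at 316, 298 and 274 CPM against 195, 229 and 197 CPM at P18 (-0.52 ± 0.08) and at -0.41 at P14. Lrrc63, a leucine-rich repeat gene, stood at 125, 108 and 108 CPM against 62.7, 75.9 and 54.7 CPM (-0.82 ± 0.13) and at -1.56 at P14. In both the groups did not overlap. Adam1b (-0.83 at P18, -2.29 at P14), Slc22a16, a carnitine transporter gene (-0.71, -1.86), and Ube2u (-0.59, -0.85) also fell at both ages, and none of those 3 calls held in the fit of the 6 P18 libraries alone. That of Ube2u was also lost without heterozygous replicate 1, without knockout replicate 1 and without knockout replicate 3.

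Promoters of genes that fell at both ages are shown because pachytene piRNA loci are known to be driven by MYBL1, and 6-letter sequences of the kind MYB proteins bind, CAGTTG and CCGTTA, can be looked for in them. RefSeq promoters of GRCm38.p6, the 250 bases before the annotated start, matched 16 of the 18 genes. 4 of them are printed 5′ to 3′ on the strand of the gene, with a motif match in capitals where there is 1: Chst1 and Stambp for their small p at P18, and Adam1b and Mroh2a for a match close to the start, at 41 and 39 bases before it. They lie at chr2:92600867-92601116 (plus strand), chr6:83572505-83572754 (minus strand), chr5:121503436-121503685 (minus strand) and chr1:88226770-88227019 (plus strand).
Chst1: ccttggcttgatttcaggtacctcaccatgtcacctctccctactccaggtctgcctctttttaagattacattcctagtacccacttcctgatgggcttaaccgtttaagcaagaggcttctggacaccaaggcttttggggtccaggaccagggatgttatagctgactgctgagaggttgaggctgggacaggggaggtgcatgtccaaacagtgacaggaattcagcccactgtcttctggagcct
Stambp: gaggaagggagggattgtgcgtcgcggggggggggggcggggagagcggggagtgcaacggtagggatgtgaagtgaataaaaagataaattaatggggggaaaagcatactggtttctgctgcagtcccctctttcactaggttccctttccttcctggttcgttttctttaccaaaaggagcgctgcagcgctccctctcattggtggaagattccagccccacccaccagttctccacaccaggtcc
Adam1b: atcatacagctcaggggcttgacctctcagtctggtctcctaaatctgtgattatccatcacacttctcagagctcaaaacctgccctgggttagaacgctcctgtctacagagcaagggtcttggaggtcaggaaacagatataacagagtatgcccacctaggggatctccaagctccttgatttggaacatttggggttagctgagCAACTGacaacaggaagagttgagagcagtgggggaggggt
Mroh2a: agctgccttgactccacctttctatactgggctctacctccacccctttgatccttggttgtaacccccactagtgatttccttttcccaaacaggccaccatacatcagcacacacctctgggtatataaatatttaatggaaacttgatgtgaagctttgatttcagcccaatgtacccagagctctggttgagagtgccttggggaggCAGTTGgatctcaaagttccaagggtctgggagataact

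CAGTTG, or its reverse complement CAACTG, was in 4 of these 16 promoters (25%), namely Adam1b, Lca5l, Mroh2a and Ak8. It was in 11.1% of all 27025 promoters and in 9.30% of the 12680 of features tested. CCGTTA, on either strand, was in none of the 16, in 2.17% of all and in 2.82% of those of features tested. CAGTTG also fits the E-box CANNTG, which other factors bind. Over the 340 falls with a promoter entry the shares were 12.9% and 2.94%. The windows of Chst1 and Stambp hold neither motif as searched, and other sequences that MYB proteins may bind were not searched for. A match describes letters only, and with 16 promoters the share is coarse.

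Where P18 and P14 differed was tested directly. The genotype effect differed in 20 of 16334 features (13 lower and 7 higher at P18, 0.0796% and 0.0429%), and 10 of them were intergenic loci. At 10-qB4-6488 the precursor rose in heterozygotes from 14.0 and 11.9 CPM at P14 to 141, 148 and 93.7 CPM at P18, while knockouts stood at 5.20 and 4.35 CPM and then at 4.00, 6.08 and 3.53 CPM. The fall was thus larger at P18, by -3.37 ± 0.34 (adjusted p = 4.06e-05, edgeR with Benjamini-Hochberg). The same course was seen at 15-qE1-1119, where heterozygotes went from 2.57 and 2.46 CPM to 22.3, 24.5 and 25.4 CPM and knockouts from 1.53 and 1.16 CPM to 1.83, 1.97 and 1.41 CPM.

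At 3 loci the difference went the other way, namely 7-qF3-3125, which fell at P14 and not at P18, and a pair from band 17-qA3.3. At 17-qA3.3-26735 knockouts stood at 5.29 and 1.59 CPM at P14 and at 65.5, 66.9 and 75.6 CPM at P18, while heterozygotes stood at 351 and 310 CPM and then at 718, 720 and 538 CPM. Its fall was smaller at P18, by 3.40 ± 0.30 on the log2 scale (adjusted p = 8.55e-06). At 17-qA3.3-27363 knockouts went from 2.96 and 1.23 CPM to 33.3, 25.8 and 33.7 CPM, and the fall was smaller by 2.17 ± 0.32. Both of that pair still fell at P18. Among genes, Ptchd3 stood at 137 and 94.7 CPM in heterozygotes and 106 and 60.9 CPM in knockouts at P14, where the groups overlapped and it did not pass, and it rose at P18, a difference of 1.76 ± 0.26 (adjusted p = 0.00442, edgeR with Benjamini-Hochberg).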

How the data were processed

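Counts of reads per gene and per piRNA locus were deposited by the authors as 1 table of testis poly(A) RNA and 1 of small RNA, per the labels; the submitters' processing notes list TopHat2 2.1, Cufflinks, cutadapt 1.8.1, the mm10 build and Subread 1.4.6-p3 with featureCounts, without their roles. From these counts, edgeR 4.0.16 in R 4.3.3 fitted all 20 testis libraries by age and genotype (filterByExpr, TMM, quasi-likelihood test, Benjamini-Hochberg over all features tested, threshold 0.05), and the small RNA libraries likewise. Tests were checked on simulated data. Alternatives were RLE factors, total counts, DESeq2 1.42.0, no filter on low counts, the compared libraries alone, a replicate block and each library left out. Counting intervals and floors (3 counts over a group) cover counting error only. The table of purified spermatocytes was not used here: Actb, at 649 CPM in P18 heterozygous testes, stood at 66.0 CPM in it.

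Features were named from Btbd18, the 12 intergenic loci that fell with the smallest p, every genic locus that changed, the 15 falls and 15 rises of other features with the smallest p, the 4 members of each list with the smallest p, 10 falls shared with P14, and the 6 falls of the highest level and of the largest size at 5 CPM or more. Members, lists and rules were chosen with earlier results of these data known. Promoter sequences are from RefSeq, GRCm38.p6.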

Additional observations from a re-analysis of the deposited data

Results flagged for a closer look

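The genotype effect differed between P18 and P14 in 20 features by edgeR's quasi-likelihood test of the difference with Benjamini-Hochberg adjustment. Lower at P18 than at P14, with the difference on the log2 scale, were 10-qB4-6488 (-3.37), 15-qE1-1119 (-2.86), 18-qE1-36451 (-2.80), Taf4b (-0.73), Kif7 (-0.90), 10-qC1-1527 (-3.07), Plk1 (-0.91), 6-qD1-2831 (-1.25), Adap1 (-1.39), 9-qC-10667 (-1.66), 7-qD1-9417 (-4.0), Filip1 (-1.37) and Ephb1 (-1.21). Higher at P18 than at P14 were 17-qA3.3-26735 (3.40), Ptchd3 (1.76), 17-qA3.3-27363 (2.17), Zfa-ps (1.71), Lrrc61 (1.30), 7-qF3-3125 (1.39) and Dnah17 (1.45). At an unadjusted p below 0.05 there were 1065 such features. In Filip1, Ephb1 and Taf4b the P14 knockout libraries stood above the heterozygous ones, and at P18 none of the 3 passed: Ephb1 stood at 9.08 and 11.9 CPM against 28.0 and 32.1 CPM in knockouts at P14, and at 13.1, 10.9 and 10.8 CPM against 14.2, 16.6 and 12.2 CPM at P18. With the compared libraries fitted alone, 2 features were lower and 1 was higher.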

How the results depend on the processing

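The 57 intergenic loci numbered 53 to 60 in every alternative run, and the 68 lower in small RNA with TMM 47 to 90. The counts of other calls moved. With the compared libraries fitted alone, 87 features fell and 5 rose at P18, 33 of the falls were no piRNA loci and 90.9% of those had risen with age; at P14 55 fell and 5 rose, and the difference between ages was lower in 2 and higher in 1. With no filter on low counts 756 fell at P18, 690 of them no piRNA loci, 329 fell and 22 rose at P14, and the difference was lower in 30 and higher in 26. DESeq2 gave 275 falls at P14 and a lower difference in 31. Total counts gave 107 rises at P18, and in small RNA 68 features lower and 8391 higher, against 1838 and 2092 with TMM.

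Leaving out 1 library at a time gave 177 to 1028 falls and 14 to 200 rises at P18, 122 to 965 falls that are no piRNA loci and 90.2% to 98.1% of those rising with age; 42 to 300 falls, 5 to 47 rises and 35 to 64 intergenic loci at P14; and 5 to 24 lower and 6 to 13 higher differences. Falls at P18 numbered 177 without knockout replicate 1, 218 without knockout replicate 3, 332 without heterozygous replicate 1 and 1028 without knockout replicate 2. At P14 a group left with 1 library is assumed to vary like the others. The causes were not tested. Deviations of same-numbered libraries from their group means had correlations of -0.42, -0.28 and -0.16, and those of other pairs -0.18 to 0.41. Deviations of 3 libraries from their own mean offset each other, so these values cannot decide whether the numbers pair the samples. A replicate block gave 413 falls, 23 rises and 57 intergenic loci. The analysis of purified spermatocytes was not run. Low counts limit the genes at or near 0 in knockouts.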
